A study of Mus musculus with 6 samples.

Results

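Lcn2, its cell surface receptor Slc22a17 and the genes that move, store and sense iron in the kidney were examined as a set of 10 genes, Lcn2, Slc22a17, Tfrc, Slc40a1, Slc11a2, Fth1, Ftl1, Hamp, Ireb2 and Bdh2. The genes were chosen by symbol through the Entrez ID of each row, and all 10 were found among the 25206 rows of the arrays. Whole-kidney extracts of male C57BL/6 mice aged 3 months were profiled on Mouse Gene 2.0 ST arrays, with 3 arrays of Vhl knockout kidneys and 3 of wild-type kidneys. Both genotypes carried the floxed Vhl allele, and the knockout mice in addition carried Hoxb7-Cre-GFP, a Cre recombinase under the Hoxb7 promoter, which is active in the collecting duct and part of the other tubules. The sample labels name no Cre for the wild-type mice of the arrays, whereas the wild-type mice from which the study took tubule cells carried Hoxb7-Cre-GFP. If those of the arrays had none, the loss of Vhl and the transgene cannot be told apart. The extracts also held the cells that kept Vhl. No source states that each array is a separate mouse, so the p-values measure the spread between these samples.

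Lcn2 encodes lipocalin 2, a small secreted protein that binds iron held by siderophores, and it is released by injured tubules and by neutrophils. Cells take up iron bound to transferrin through the transferrin receptor Tfrc, move it out of the endosome with the transporter Slc11a2, store it in ferritin made of the Fth1 and Ftl1 chains, and export it through ferroportin, the product of Slc40a1. The hormone hepcidin, the product of Hamp, removes ferroportin from the membrane. The iron regulatory proteins, among them the product of Ireb2, act on the mRNAs of ferritin, ferroportin and Tfrc, in part on their translation, which arrays of mRNA do not read.

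Values are log2 signals from RMA, a procedure that corrects the background and normalizes the arrays against each other, so a difference of 1 is a doubling. The genotypes were compared in every row with limma, with Benjamini-Hochberg adjusted p-values taken over the whole table and a call made under 0.05. At that level 2.24% of all rows were called higher in the Vhl knockout kidneys and 0.524% were called lower, and the median log2 fold change was -0.03. The kidney identity of the extracts was checked with the signal of tubule genes. Over the 6 arrays the mean log2 signal was 10.93 to 11.04 for 9 proximal tubule markers. It was 9.012 to 9.155 for 6 loop and distal tubule markers. None of these markers fell under the lower quartile of all 6 arrays, and none passed the test between the genotypes. Of 13 collecting duct markers, 4 were lower and none was higher in the knockout kidneys, namely Aqp3, Aqp4, Fxyd4 and Hsd11b2, and the mean log2 signal of all 13 was 7.42 to 7.56 on the knockout arrays and 7.77 to 7.83 on the wild-type arrays. Fewer cells of a type and less RNA per cell cannot be told apart in such extracts. Adipocyte markers were high on the arrays of knockout replicates 1 and 3, with a mean of 7.34 and 6.48 over 6 genes, against 4.90 for knockout replicate 2 and a range of 4.63 to 5.10 for the wild-type kidneys.

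Lcn2 was the single gene of the 10 that passed the test, and it was higher in the Vhl knockout kidneys. The study had taken Lcn2 as a candidate from these same arrays, where it reported the gene as highly overexpressed. That it passed here is therefore no independent result, and the values below describe its size and spread. Its log2 signal was 9.78, 9.63 and 9.20 in the Vhl knockout kidneys, against 5.81, 5.70 and 5.73 in the wild-type kidneys. The groups did not overlap, and the gap between the lowest knockout and the highest wild-type array was 3.40. The linear fold was 13.8, with a 95% interval from 10.9 to 17.5 (log2 fold change 3.79, standard error 0.145, adjusted p = 0.000234 from limma). The spread of Lcn2 was wider among the knockout arrays (SD 0.298) than among the wild-type arrays (SD 0.055, n = 3 each). With the mean signal of the adipocyte markers as a covariate the log2 fold change of Lcn2 was 3.76 (adjusted p = 0.0190), and with knockout replicate 2 as the single knockout array, assumed to vary like the wild-type arrays, it was 3.88 (adjusted p = 0.00687). By an exact two-sided permutation test of Lcn2 p was 0.1, which is the lower limit for groups of 3 arrays each. The array-by-array plot of the 10 genes shows the separation of Lcn2 beside the other genes.

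**Figure D1:**
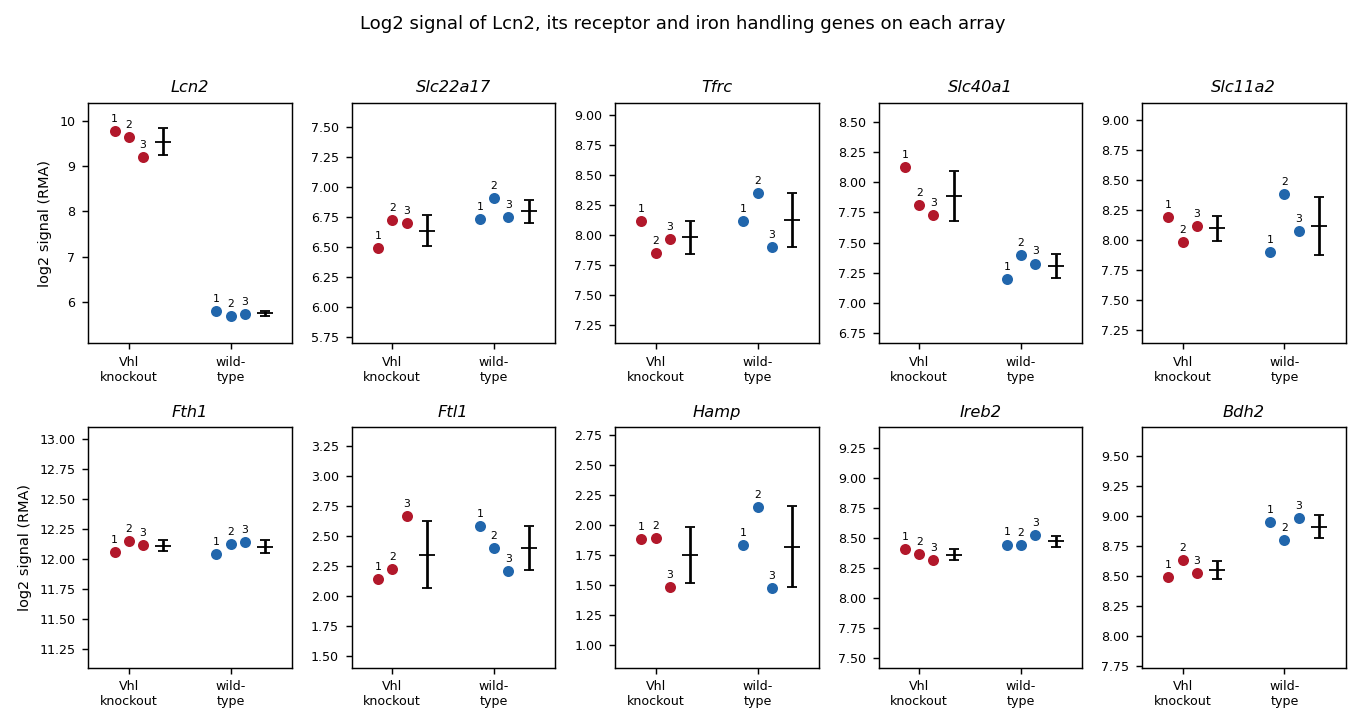
Log2 signal from RMA (vertical axes, a separate range of at least 2 units for each gene) on the 3 Vhl knockout arrays (red) and the 3 wild-type arrays (blue). Points are arrays with their replicate numbers, and the black bars give the mean and SD. Lcn2 stood at 9.20 to 9.78 in the Vhl knockout kidneys and at 5.70 to 5.81 in the wild-type kidneys, whereas Fth1 overlapped between the genotypes.

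Neutrophils are a well-known source of Lcn2, and their markers were low on these arrays. None of 12 neutrophil markers passed the test with limma, and without adjustment 1 was lower and none higher at p under 0.05, against 8.38% and 8.67% of all rows. Their mean log2 signal was 3.26 to 3.36 in the Vhl knockout kidneys and 3.37 to 3.51 in the wild-type kidneys, and 7 of the 12 were under the lower quartile of all 6 arrays. Lactoferrin (Ltf), an iron-binding protein of neutrophil granules, had 3.72, 3.67 and 3.59 in the Vhl knockout kidneys, against 3.92, 3.73 and 3.69 in the wild-type kidneys. The groups overlapped, and its log2 fold change was -0.12 (adjusted p = 0.543). Of 12 macrophage markers, 8 were higher and none was lower at the adjusted threshold (66.7%, against 2.77% of all rows in either direction). Csf1r, Vsig4, Timd4 and Clec4f did not pass. The mean log2 signal of all 12 was 5.95 to 6.07 in the Vhl knockout kidneys against 5.01 to 5.20 in the wild-type kidneys. The part of neutrophils or of macrophages in the Lcn2 signal was not tested, and neutrophil markers under the lower quartile could show little of a change.

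The promoter sequences of Lcn2, of its receptor gene Slc22a17 and of Tfrc, a known target of the hypoxia-inducible factors that VHL restrains, are shown because the first rose and the others did not pass the test. They are the 250 bases before the annotated start in RefSeq (build GRCm38.p6). Capitals mark the core of the hypoxia response element, ACGTG or GCGTG on either strand, and the C/EBP motif TTGCNNAA on either strand. The Lcn2 window lies at chr2:32387740-32387989 (minus strand), the Slc22a17 window at chr14:54913133-54913382 (minus strand) and the Tfrc window, the downstream of 2 annotated starts, at chr16:32608872-32609121 (plus strand).
Lcn2: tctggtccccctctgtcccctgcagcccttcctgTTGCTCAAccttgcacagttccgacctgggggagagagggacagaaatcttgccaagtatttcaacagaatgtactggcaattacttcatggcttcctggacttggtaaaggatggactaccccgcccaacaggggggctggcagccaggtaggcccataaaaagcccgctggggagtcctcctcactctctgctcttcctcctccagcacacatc
Slc22a17: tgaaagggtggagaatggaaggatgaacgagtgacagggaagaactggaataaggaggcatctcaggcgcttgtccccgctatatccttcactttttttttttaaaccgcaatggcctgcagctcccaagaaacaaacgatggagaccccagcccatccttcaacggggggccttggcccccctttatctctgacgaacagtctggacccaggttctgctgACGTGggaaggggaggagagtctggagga
Tfrc: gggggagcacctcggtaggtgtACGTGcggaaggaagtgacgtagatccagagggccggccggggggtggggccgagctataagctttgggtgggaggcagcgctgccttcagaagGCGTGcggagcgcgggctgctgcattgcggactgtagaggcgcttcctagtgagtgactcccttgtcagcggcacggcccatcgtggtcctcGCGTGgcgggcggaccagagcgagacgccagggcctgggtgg
The Lcn2 window held no hypoxia response core and 1 match to the C/EBP motif, TTGCTCAA, whose first base lies 216 bases before the start. The C/EBP motif was not particular to Lcn2 among the 10 genes. It was also matched in the window of Bdh2 and in a window of Fth1, and neither gene passed the test. The Slc22a17 window held 1 hypoxia response core, 29 bases before the start, and this Tfrc window held 3. Of all 32851 such windows in the RefSeq table, 38.6% held a hypoxia response core and 9.56% a C/EBP motif, so the core is common. Windows were found for 8 of the 10 genes, and at least 1 window of 5 of them held a core. Counted by window, as in the share of all windows, 6 of 10 held a core. The Lcn2 window held neither the STAT motif TTCNNNGAA nor the NF-κB decamer, which 7.02% and 7.25% of all windows held. A match is a match of letters and says nothing of binding. Likewise, no match to a fixed pattern within 250 bases does not show that the promoter lacks such a site.

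The receptor gene Slc22a17 did not pass the test, and its signal lay slightly lower in the Vhl knockout kidneys. It was 6.49, 6.72 and 6.70 in the Vhl knockout kidneys, against 6.73, 6.91 and 6.75 in the wild-type kidneys. The groups were separated by 0.0088 alone. The log2 fold change was -0.16 with a 95% interval from -0.38 to 0.06 (adjusted p = 0.440), so a doubling lies far outside the interval. Lrp2, which encodes megalin, the endocytic receptor that takes up filtered Lcn2 in the proximal tubule, had a log2 fold change of -0.07, at an adjusted p of 0.673. Mc4r, reported as an Lcn2 receptor in the brain, had 0.05 (adjusted p = 0.838), with a signal under the lower quartile of every array. Mmp9, the protease that human LCN2 binds, had 0.10 (adjusted p = 0.567). Thus none of the 3 other partners passed the test.

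Bdh2, an enzyme reported to make a siderophore that Lcn2 can carry, was the lowest of the 10 genes by log2 fold change, without passing the test. Its log2 signal was 8.49, 8.64 and 8.53 in the Vhl knockout kidneys, against 8.95, 8.80 and 8.98 in the wild-type kidneys. All knockout arrays lay below all wild-type arrays, by at least 0.165. The log2 fold change was -0.36 (95% interval from -0.56 to -0.16, standard error 0.084, adjusted p = 0.0769), a fold of 0.780. Bdh2 passed under trend and robust eBayes (adjusted p = 0.0202), and also when only rows brighter than the median of 3 or more arrays were tested (adjusted p = 0.0282), and with the adipocyte covariate it had -0.27 (adjusted p = 0.437).

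Slc40a1, the gene of the iron exporter ferroportin, was second to Lcn2 in size among the 10 genes and missed the threshold narrowly. Its log2 signal was 8.13, 7.82 and 7.73 in the Vhl knockout kidneys, against 7.20, 7.40 and 7.33 in the wild-type kidneys. The groups did not overlap, with a gap of 0.333. The difference was 0.58 on the log2 scale (standard error 0.118, adjusted p = 0.0523), with a 95% interval of the linear fold from 1.24 to 1.82. Slc40a1 passed under trend and robust eBayes (adjusted p = 0.0166), and also among the brighter rows alone (adjusted p = 0.0219). With an array left out, in contrast, the adjusted p was 0.0715 to 0.167. With the adipocyte covariate the log2 fold change of Slc40a1 was 0.46 (adjusted p = 0.353 from limma), and without knockout replicates 1 and 3 it was 0.51. Macrophages that recycle iron express ferroportin, and 8 of the 12 macrophage markers given above were higher. Their part in the Slc40a1 signal was not tested.

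Hamp did not pass the test, and its row was under the lower quartile of all 6 arrays. Its log2 signal was 1.89, 1.89 and 1.48 in the Vhl knockout kidneys, against 1.83, 2.15 and 1.48 in the wild-type kidneys (log2 fold change -0.07, 95% interval from -0.51 to 0.37, adjusted p = 0.898). The groups overlapped. Hepcidin is made mainly in the liver, and a kidney extract does not show its level there.

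Neither of the members of iron uptake, Tfrc and Slc11a2, passed the test. Tfrc had 8.12, 7.85 and 7.97 in the Vhl knockout kidneys, against 8.12, 8.35 and 7.90 in the wild-type kidneys. The groups overlapped, and the log2 fold change was -0.14 with a 95% interval from -0.45 to 0.16 (adjusted p = 0.633). Slc11a2, the divalent metal transporter, had 8.19, 7.99 and 8.12 in the Vhl knockout kidneys, against 7.90, 8.38 and 8.08 in the wild-type kidneys. Here too the groups overlapped, with a log2 fold change of -0.02 and a 95% interval from -0.33 to 0.28 (adjusted p = 0.952). For both genes the wild-type arrays were the more variable, with an SD of 0.136 in the knockout and 0.225 in the wild-type kidneys for Tfrc and of 0.105 and 0.242 for Slc11a2 (n = 3 each).

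Fth1, the ferritin heavy chain that oxidises iron for storage, did not pass the test, and its arrays lay close together in both genotypes. Its log2 signal was 12.06, 12.15 and 12.12 in the Vhl knockout kidneys, against 12.04, 12.13 and 12.14 in the wild-type kidneys. The groups overlapped, with a log2 fold change of 0.01 and a 95% interval from -0.16 to 0.18 (adjusted p = 0.972). The row of the light chain Ftl1 was under the lower quartile of all 6 arrays, at 2.14 to 2.67 in the Vhl knockout and 2.21 to 2.58 in the wild-type kidneys. Its log2 fold change was -0.05 with a 95% interval from -0.42 to 0.32 (adjusted p = 0.903). L-ferritin is an abundant protein of the kidney and its gene has processed copies elsewhere in the genome. Which exons the probes of this row read is not stated in the sources, and the Ftl1 row thus says little of L-ferritin.

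Ireb2, an iron regulatory protein, had 8.41, 8.37 and 8.32 in the Vhl knockout kidneys, against 8.45, 8.45 and 8.53 in the wild-type kidneys. The knockout arrays were all below the wild-type arrays, by 0.038. The log2 fold change of -0.11, with a 95% interval from -0.27 to 0.06, did not pass the test (adjusted p = 0.485). Its relative Aco1, which serves as an aconitase or as the other iron regulatory protein, had 9.89, 10.02 and 10.04 in the Vhl knockout kidneys, against 10.29, 10.32 and 10.30 in the wild-type kidneys. All knockout arrays were lower for Aco1 too. The difference was -0.32 on the log2 scale (standard error 0.074), which missed the threshold at an adjusted p of 0.0744 and passed at 0.0110 under trend and robust eBayes. Of 7 measured mRNAs with an iron-responsive element, the sequence that these proteins bind, none passed the test with limma, and 1 had an unadjusted p under 0.05, Slc40a1. Their median log2 fold change was 0.01. Besides the members these were Alas2, with 0.24 (adjusted p = 0.721), and the HIF subunit gene Epas1, with 0.25 (adjusted p = 0.332).

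Of the 10 genes, 1 was higher and none was lower at the threshold, which 2.77% of all rows passed in either direction. At an unadjusted p under 0.05, 2 of the 10 were higher and 1 was lower, against 8.67% and 8.38% of all rows (17% in either direction). The signals of 2 were higher and those of 3 lower without overlap, where 11.2% and 12.7% of all rows (23.8% together) did so. Without Lcn2 the log2 fold changes lay between -0.36 for Bdh2 and 0.58 for Slc40a1. The count of members past the test was 3 with trend and robust eBayes and 3 among the brighter rows alone, in both cases Lcn2, Slc40a1 and Bdh2.

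**Figure D2:**
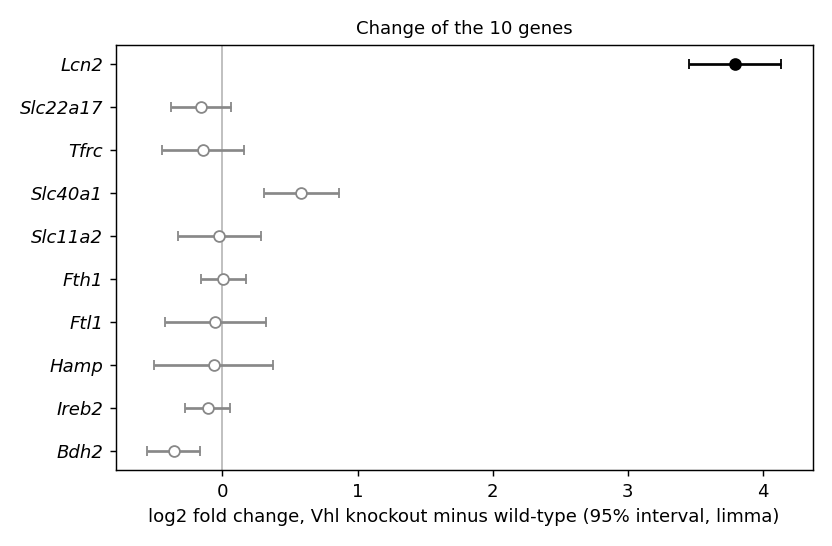
Log2 fold change of each of the 10 genes, Vhl knockout minus wild-type (horizontal axis), with its 95% interval from limma. The filled point, Lcn2 at 3.79, passed the adjusted threshold of 0.05, and the open points did not. The intervals of Slc40a1 and Bdh2 lie on either side of 0 without reaching it.

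In the wider set of iron and heme genes, 76 were measured beyond the 10, of which 6 were higher and none was lower (7.89%, against 2.77% of all rows in either direction), with a median log2 fold change of -0.01. These were Trf, Cp, Flvcr1, Slc11a1, Lrp1 and Cd163. Trf, which encodes transferrin, had 8.35, 7.57 and 7.90 in the Vhl knockout kidneys, against 6.43, 6.65 and 6.43 in the wild-type kidneys. Its fold was 2.71 (log2 fold change 1.44, standard error 0.188, adjusted p = 0.0119), and the lowest knockout array was knockout replicate 2. Without wild-type replicate 1 its adjusted p was 0.0580, without wild-type replicate 3 it was 0.0526, and with the adipocyte covariate the log2 fold change was 1.03 (adjusted p = 0.0573). Cp, which encodes ceruloplasmin, the ferroxidase that loads exported iron onto transferrin, had 9.46, 9.35 and 9.04 in the Vhl knockout kidneys, against 8.38, 8.13 and 8.10 in the wild-type kidneys. Its fold was 2.11 (log2 fold change 1.08, standard error 0.132, adjusted p = 0.00925), and it passed with any single array left out.
Flvcr1, a membrane transporter known as a heme exporter, had 8.06, 7.88 and 7.91 in the Vhl knockout kidneys, against 6.88, 6.79 and 6.98 in the wild-type kidneys. Its fold was 2.09 (log2 fold change 1.06, standard error 0.088, adjusted p = 0.00269), and it passed with the adipocyte covariate (0.99, adjusted p = 0.0450), a setting in which 94 rows passed in all. The other 5 of these genes did not pass there, but Cp had 1.04 and Slc11a1 0.74, close to their values without the covariate, and Lrp1 had 0.49. Slc11a1, the iron transporter of the macrophage phagosome, was higher by 0.73 on the log2 scale (adjusted p = 0.00585), and the hemopexin receptor Lrp1 had 0.58 (adjusted p = 0.0129). Slc11a1 passed with any single array left out, and Lrp1 had an adjusted p of 0.0518 without knockout replicate 3, 0.0605 without wild-type replicate 1 and 0.0526 without wild-type replicate 3. Cd163, the macrophage receptor for hemoglobin bound to haptoglobin, had 5.01, 4.42 and 4.78 in the Vhl knockout kidneys, against 4.05, 4.01 and 3.97 in the wild-type kidneys. Its log2 fold change of 0.73 was at the edge of the test (adjusted p = 0.0499), and it passed only without knockout replicate 2, with an adjusted p of 0.0972 to 0.145 without any of the others. With the adipocyte covariate the log2 fold change of Cd163 was 0.40 (adjusted p = 0.183), and without knockout replicates 1 and 3 it was 0.41 (adjusted p = 0.286). Cd163 and Slc11a1 are genes of macrophages. Of the 12 macrophage markers, 8 were higher, Cd163 itself among them, and their part in these results was not tested.

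**Figure D3:**
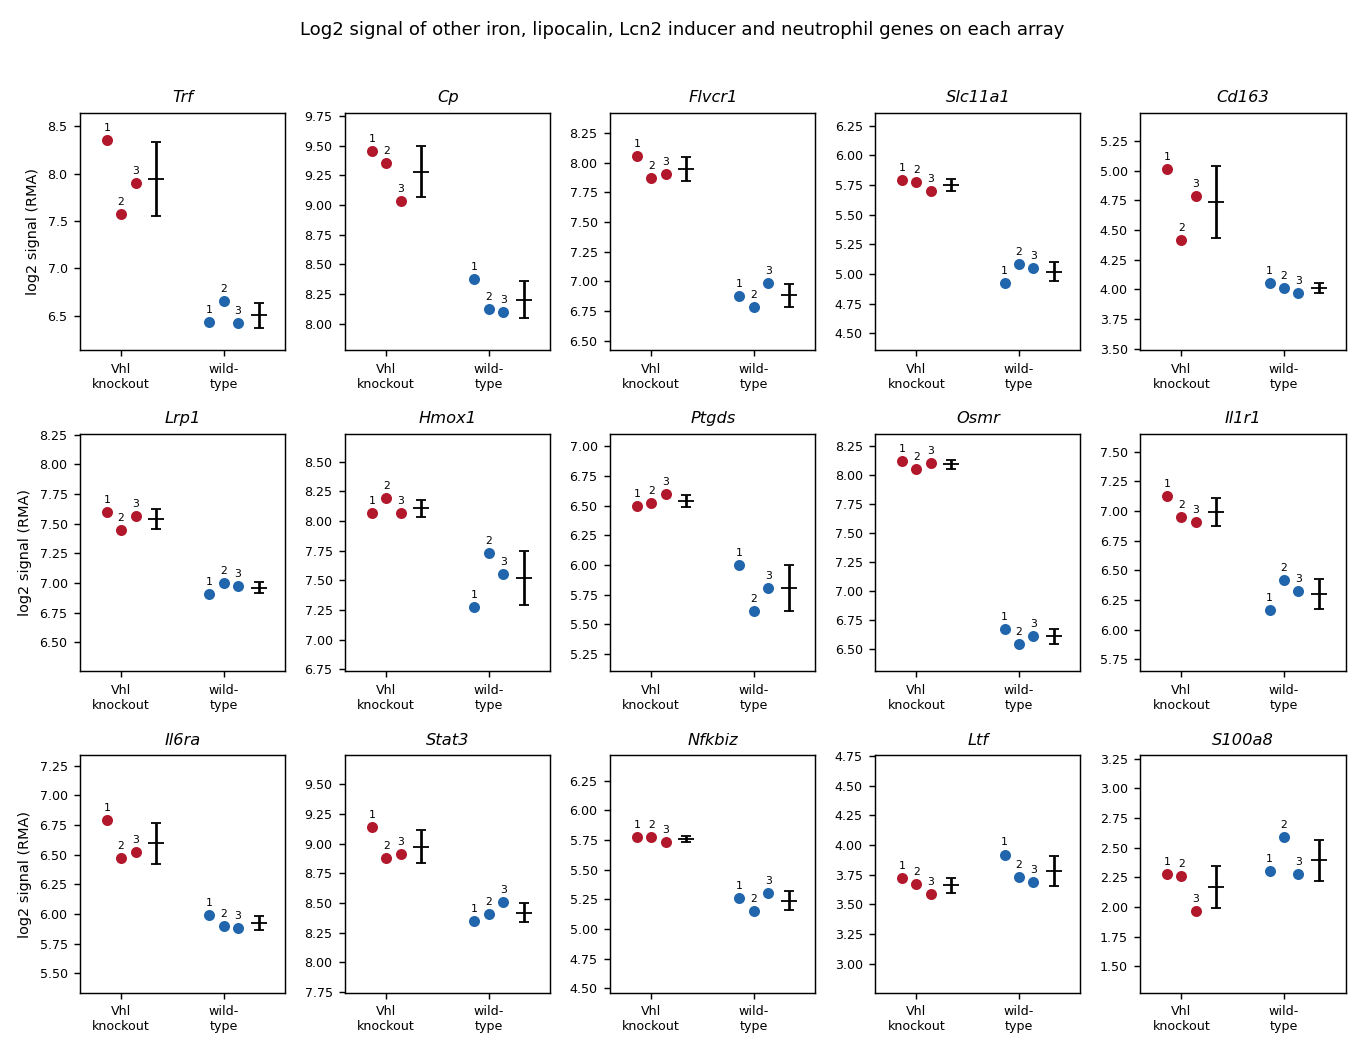
Log2 signal from RMA (vertical axes, a separate range of at least 2 units for each gene) of 15 other genes on the 3 Vhl knockout arrays (red) and the 3 wild-type arrays (blue), with replicate numbers, means and SD (black). Trf, Cp, Flvcr1 and Osmr lie well apart between the genotypes, whereas the neutrophil genes Ltf and S100a8 overlap or touch.

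Uptake was represented by 15 genes, of which 2 were higher, Trf and Slc11a1, and none was lower (13.3%, against 2.77% of all rows). For the ferrireductases Steap3 and Steap4, picked with their values in view, the log2 fold change was 0.42 (adjusted p = 0.0649) and 0.96 (adjusted p = 0.0712). Steap4 had 6.06, 5.13 and 5.55 in the Vhl knockout kidneys, against 4.52, 4.78 and 4.55 in the wild-type kidneys, highest where the adipocyte markers were highest. Of 22 genes of export and of the control of hepcidin, Cp alone passed (4.55%). The BMP target Id1 had a log2 fold change of -0.33, at an adjusted p of 0.289. None of 6 genes of storage and regulation passed the test, and after Aco1 the largest value was -0.13 for the iron chaperone Pcbp1 (adjusted p = 0.517).
Of 21 measured heme genes, 3 were higher and none was lower (14.3%, against 2.77% of all rows in either direction). Heme oxygenase 1 (Hmox1), chosen after its values were seen, had 8.07, 8.19 and 8.06 in the Vhl knockout kidneys, against 7.28, 7.73 and 7.56 in the wild-type kidneys. The groups did not overlap, and the log2 fold change of 0.59 missed the threshold (adjusted p = 0.0556). The hemoglobin-binding protein haptoglobin (Hp), also chosen after its values were seen, had 6.78, 5.14 and 6.22 in the Vhl knockout kidneys, against 5.04, 4.58 and 4.56 in the wild-type kidneys. Its log2 fold change of 1.32 did not pass (adjusted p = 0.137), with knockout replicate 2 the lowest knockout array. None of 12 measured genes of mitochondrial iron and iron-sulfur clusters passed the test with limma, nor did any have an unadjusted p under 0.05. The largest were those of the scaffold Iscu, with -0.17 (adjusted p = 0.380), and of Lyrm4, with -0.14 (adjusted p = 0.521).
Of 8 iron genes known as targets of the hypoxia-inducible factors, 2 were higher, Trf and Cp (25%, against 2.77% of all rows in either direction). Both are already counted above, under uptake and export. The other 6 did not pass, and their log2 fold changes ran from -0.14 for Tfrc to 0.59 for Hmox1. The median of the 8 was 0.39.

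The other lipocalins were examined as relatives of Lcn2. Of 18 measured members of the family besides Lcn2, 1 was higher and none was lower (5.56%, against 2.77% of all rows). Their median log2 fold change was -0.04. Ptgds, the prostaglandin D synthase, had 6.50, 6.52 and 6.60 in the Vhl knockout kidneys, against 6.00, 5.61 and 5.81 in the wild-type kidneys. The difference was 0.73 on the log2 scale (standard error 0.109, adjusted p = 0.0180), and the adjusted p was 0.0550 to 0.0687 without knockout replicate 1, 2 or 3 or wild-type replicate 3. The acute phase lipocalin Orm1 had 5.53, 3.71 and 4.76 in the Vhl knockout kidneys, against 3.58, 3.92 and 3.92 in the wild-type kidneys. Knockout replicate 2 lay within the wild-type range, as for the adipocyte markers, and Orm1 did not pass the test (log2 fold change 0.86, adjusted p = 0.337).

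Genes that are known to induce Lcn2 or to drive its transcription included several that were higher. Of 16 measured genes, 5 were higher and none was lower (31.2%, against 2.77% of all rows in either direction), with a median log2 fold change of 0.32. Osmr, the receptor subunit for oncostatin M, had 8.11, 8.05 and 8.10 in the Vhl knockout kidneys, against 6.67, 6.54 and 6.61 in the wild-type kidneys. Its fold was 2.79 (log2 fold change 1.48, standard error 0.072, adjusted p = 0.000667), and it passed with any single array left out and with the adipocyte covariate, but not without knockout replicates 1 and 3, where 8 rows passed in all and its log2 fold change was 1.44 (adjusted p = 0.0767). The receptors Il1r1 and Il6ra were higher by 0.69 (adjusted p = 0.0154) and by 0.68 (adjusted p = 0.0185), and the transcription factor Stat3, which acts behind Osmr and Il6ra, had 0.56 (adjusted p = 0.0295). Nfkbiz, a nuclear cofactor of NF-κB at the Lcn2 promoter, was the fifth, with 0.52 (adjusted p = 0.0151), and was named after its value was seen. With the adipocyte covariate Il1r1 had 0.62, Il6ra 0.51, Stat3 0.44 and Nfkbiz 0.53, with an adjusted p of 0.134 to 0.249.
The ligands did not pass the test. Il1b, named after its value was seen, had a log2 fold change of 0.60, at an adjusted p of 0.0815, with Tnf 0.14 (adjusted p = 0.562), Il6 0.12 (adjusted p = 0.628), Osm -0.03 (adjusted p = 0.948) and Il17a 0.00 (adjusted p = 0.996). The C/EBP factors Cebpb and Cebpd had 0.18 (adjusted p = 0.535) and 0.34 (adjusted p = 0.184). Il6 was under the lower quartile of all 6 arrays. With any single array left out Stat3 missed the threshold (adjusted p of 0.0544 to 0.113), and Nfkbiz missed it unless wild-type replicate 3 was the array left out (0.0519 to 0.0612 otherwise). Il1r1 had 0.0605 without wild-type replicate 1 and 0.0600 without wild-type replicate 3, and Il6ra had 0.0518 to 0.0750 without knockout replicate 3 or any wild-type replicate.

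**Figure D4:**
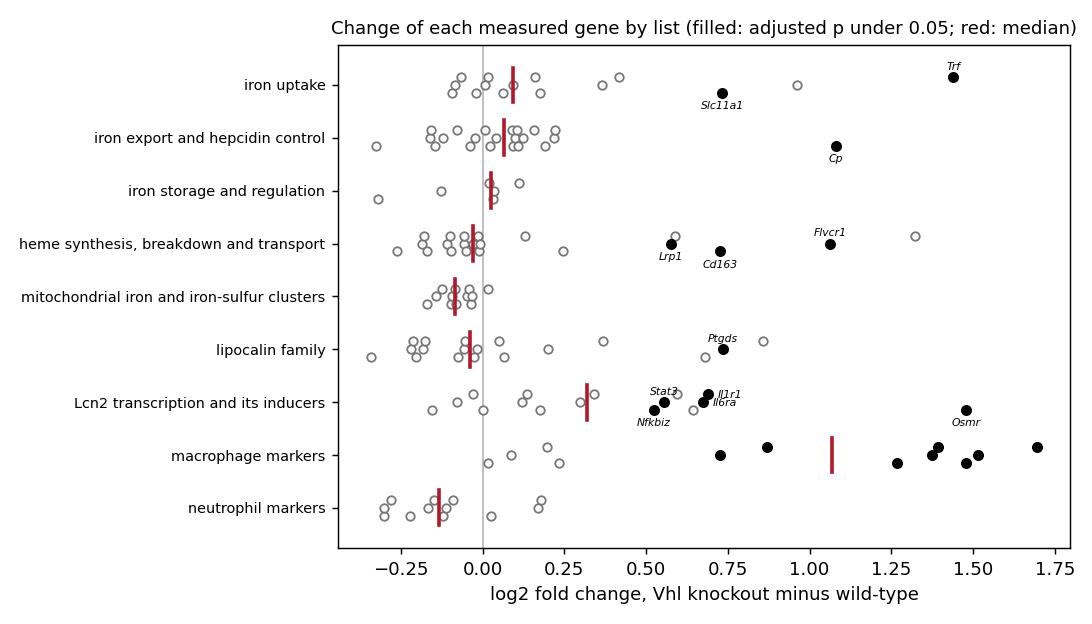
Log2 fold change, Vhl knockout minus wild-type (horizontal axis), of each measured gene of 7 pathway lists and of the macrophage and neutrophil markers (rows). Filled points passed the adjusted threshold of 0.05 in limma, open points did not, and red lines are medians, at 0.32 for the inducers of Lcn2, 1.07 for the macrophage markers and -0.13 for the neutrophil markers.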

How the data were processed

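The deposited values are log2 signals, which the authors' processing notes attribute to RMA, with 1 value for each of 25206 Entrez Gene rows on 6 arrays. The software, its version and the genome build are not given in the sources read. The log2 values of the 2 deposited tables were equal in all 25206 rows (tolerance 1e-06), and 0 per-sample columns went unused. A moderated statistic, p-value and q-value that the authors deposited for the same comparison were not used. Groups and replicate numbers came from the sample titles. Gene symbols were read from the platform annotation and brought up to date by Entrez ID with a RefSeq table (GRCm38.p6). All 23185 rows that had a symbol were matched, while 2021 had none here.

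The genotypes were compared row by row in limma 3.58.1 under R 4.3.3, by lmFit and eBayes with no other term, with Benjamini-Hochberg adjustment over all rows. The study's methods name no test for the arrays. Intervals are 95% intervals from limma. Simulated data, with variances drawn from the distribution that limma fitted to these arrays, were used to test the script. These data follow limma's own assumptions, so they test the code alone. Promoters were scanned and figures drawn with Python 3.11.15. Array medians were 5.02 to 5.05, and the mean correlation with arrays of the same genotype was 0.992 to 0.994. Arrays have no read depth, so precision is limited by their number.

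The 10 genes, the lists, the tests and the alternatives were chosen with earlier results of these data known. The rule named the 10 genes, then from each list up to 4 genes past the threshold with the largest change, or, with fewer than 2 past it, the 2 that changed most, and the 5 rows most correlated with Lcn2 and with Slc40a1. Listed genes without a row were left out, and genes named beyond this rule, such as Ltf, Hmox1, Alas2 and the cytokines, were chosen after their values were seen. Alternatives were quantile normalization, leaving out dim rows, trend and robust eBayes, array weights, a replicate block, an adipocyte covariate, and leaving out arrays.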

Additional observations from a re-analysis of the deposited data

How the results depend on the processing

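Lcn2 passed in all alternatives run, with a log2 fold change of 3.67 to 3.96 with 1 array left out. The count of the 10 genes past the test was 1, and it was 3 with trend and robust eBayes and 3 with only rows brighter than the median of 3 or more arrays, where 1094 and 1101 rows in all passed, against 697. Over rows above the median, 8 of the 10 genes were tested. The count was 1 with each single array left out. The 6 wider iron genes past the test became 11 with trend and robust eBayes, 1 with the adipocyte covariate (94 rows in all) and 0 without Vhl knockout replicates 1 and 3 (8 rows in all), and 3 to 8 with 1 array left out, with 3 without wild-type replicate 1 and 3 without wild-type replicate 3. All rows past the test were 245 to 409 with 1 array left out. The causes were not tested, and the settings with arrays left out also have fewer samples.

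Among genes that never passed, the sign turned for Ftl1 after quantile normalization (0.0021), for Lyrm4 and Orm1 with the adipocyte covariate (0.0018 and -0.075) and for Hamp and Orm1 without Vhl knockout replicates 1 and 3 (0.073 and -0.096). With 1 array left out the log2 fold change was -0.21 to 0.049 for Ftl1, -0.24 to 0.10 for Hamp, -0.13 to 0.11 for Slc11a2 and -0.024 to 0.032 for Fth1. Arrays of the same replicate number had deviations correlated at 0.036, 0.073 and -0.100. Over all rows no pairing by number was seen, but a pairing that touches few rows would not show in these values. The labels do not say what the numbers mean. With the replicate number as a block the count was 1 of the 10 genes, 4 of the wider iron genes and 270 rows in all, and Lcn2 had 3.79 (adjusted p = 0.00303). Cd163, Lrp1, Ptgds, Il1r1, Stat3, Nfkbiz, Psca and Kirrel then lost the call, and Slc40a1 and Bdh2 had an adjusted p of 0.134 and 0.185. Rows under the lower quartile, as of Ftl1 and Hamp, limit what can be seen.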

Other observations

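The rows most like Lcn2 over the 6 arrays, by Pearson correlation among 20352 named rows, were Rragd (r = 0.999), Fgg (r = 0.998), Ighm (r = 0.998), Spon1 (r = 0.998) and Kirrel (r = 0.997). All 6 points share the gap between the genotypes, so this is a description. Rragd, which encodes a GTPase of the lysosomal nutrient sensing complex, had a log2 fold change of 0.19 alone (adjusted p = 0.210), against 2.82 for the fibrinogen chain Fgg (adjusted p = 0.00120). Those most like Slc40a1 were Otud4 (r = 0.995), Spint2 (r = 0.993), Capn5 (r = 0.993), Clca3a1 (r = 0.992) and Psca (r = 0.992), of which Psca passed the test (log2 fold change 1.10, adjusted p = 0.0149), though not with the replicate block (adjusted p = 0.0643).

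Within the Vhl knockout kidneys, replicate 1 was highest and replicate 3 lowest for Lcn2, Slc40a1 and Cp, while replicate 2 was lowest for Trf, Cd163, Steap4 and the adipocyte markers. With 3 arrays this is a description.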
